A study of Homo sapiens with 4 samples.

Results

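The genes described here encode myosins, the motor proteins that move along actin filaments. They were chosen by name alone, as every gene whose symbol is MYH, MYO or MYL followed by a number and at most 1 letter, and entries with the same name were summed. This gave 52 of the 29655 gene names in the tables: 15 class II heavy chains, 25 unconventional heavy chains and 12 light chains. MYH16, among the class II names, is annotated as a pseudogene, so it could not enter the tests of protein-coding genes. Expression was measured by RNA-seq in UMSCC74B cells, a long-established line derived from a squamous cell carcinoma of the head and neck (HNSCC). Of the 4 libraries, 2 came from cells given control shRNA (genotype label WT) and 2 from cells given shRNA (genotype label PRMT5 KD) against PRMT5, an enzyme that dimethylates arginine residues symmetrically. All were collected after 72 h. The labels describe transfected plasmids and the methods of the study describe lentiviral particles, so the delivery of the shRNA is not settled. The labels do not say whether replicates came from separate cultures, so the p-values below measure only the spread between these samples, which may be technical.

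A myosin motor consists of a heavy chain, which holds the actin-binding ATPase head, and of light chains or calmodulin wrapped around its neck. Class II heavy chains pair through long tails and assemble into filaments that pull on actin, as in muscle fibres, in stress fibres and in the cytokinetic ring. The nonmuscle forms are switched on when the regulatory light chain is phosphorylated by kinases such as MYLK, ROCK1 and ROCK2, and switched off by a phosphatase that holds a PPP1R12 subunit. The unconventional classes do not form such filaments, and instead link membranes to actin, carry cargo or build protrusions.

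The regulatory light chains are shown first, because their genes differed in direction and because near-identical genes limit how reads can be told apart. The sequences are the second coding exon of each gene, read from the GENCODE 44 transcripts on GRCh38. MYL9 lies at chr20:36548032-36548193, MYL12A at chr18:3253889-3254050 and MYL12B at chr18:3277253-3277414, all on the plus strand. Each exon has 162 bases, and capitals mark the 37 positions at which the 3 genes do not all share a base.
MYL9: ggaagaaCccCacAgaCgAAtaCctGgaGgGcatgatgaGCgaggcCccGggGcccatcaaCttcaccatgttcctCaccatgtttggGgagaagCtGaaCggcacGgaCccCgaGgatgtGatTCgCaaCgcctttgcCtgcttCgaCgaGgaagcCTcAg
MYL12A: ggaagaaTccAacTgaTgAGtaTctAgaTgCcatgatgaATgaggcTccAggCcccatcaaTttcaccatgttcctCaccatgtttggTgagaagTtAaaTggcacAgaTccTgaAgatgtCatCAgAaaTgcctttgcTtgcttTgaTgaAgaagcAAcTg
MYL12B: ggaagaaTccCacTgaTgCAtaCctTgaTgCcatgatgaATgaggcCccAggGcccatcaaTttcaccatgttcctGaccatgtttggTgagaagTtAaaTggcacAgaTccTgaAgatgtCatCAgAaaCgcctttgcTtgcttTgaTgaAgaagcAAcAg
MYL12A and MYL12B differed at 10 positions of this exon, whereas MYL9 differed from MYL12A at 35 and from MYL12B at 30. Over the 332 bases of the last 2 coding exons, MYL12A and MYL12B were 95.8% identical, and their transcripts shared a run of 77 bases without a mismatch. MYL9 was 78.3% identical to MYL12A and 79.8% identical to MYL12B, with shared runs of at most 26 and 19 bases.

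The label of the knockdown was checked on the PRMT5 transcript itself. PRMT5 had 94.3 and 84.2 CPM (counts scaled to a common library size) in control against 132 and 149 CPM under the PRMT5 KD label. Its log2 fold change was 0.66 (standard error 0.12, FDR = 0.00546, edgeR), so the transcript was higher, not lower, and every direction below is by label. Without control replicate 2 it was 0.58 and no longer passed (FDR = 0.0678). Counts do not measure the PRMT5 protein, and the study reports that its immunoblot check showed the silencing. FXR1 is the RNA-binding protein that the study places downstream of PRMT5. It had 189 and 187 CPM in control against 231 and 223 CPM under the PRMT5 KD label. FXR1 was not called (0.27, FDR = 0.0724). With exon length and GC content corrected for, it was 0.49 (FDR = 0.00981), just under the fold change threshold of 0.5 used below. The study reports that a PRMT5 inhibitor left FXR1 mRNA little changed and lowered the protein. Library totals ran from 52185289 to 65964558 counts, and ribosomal RNA took 14.2% to 15.3% of them in control and 18.02% to 26.2% under the PRMT5 KD label. The scaling to CPM used TMM factors, and each SD was taken over 2 libraries.

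Markers of other cell types were examined before the myosin genes were compared. The squamous keratins KRT5, KRT14 and KRT6A and the epithelial cadherin CDH1 had at most 21.8 counts in any library, and only 3 of 10 squamous markers were tested. Of these, the desmosomal cadherin DSG3 (-0.85) and the transcription factor TP63 (-1.35) fell and the plakophilin PKP1 (0.79) rose. KRT17 had 5 and 6 counts in control against 53 and 71. SFN had 3 and 5 counts against 28 and 86, and KRT14 had 0 in both control libraries against 11 and 21.8. The squamous list summed to 52.5 to 58.2 CPM in control and 37.04 to 48.7 CPM under the PRMT5 KD label. On a list of 10 fibroblast and smooth muscle markers, 5 of the 7 tested fell, among them the collagen genes COL1A1 and COL1A2. Of all genes tested, 24.3% fell by the same test. TAGLN (0.59, FDR = 0.109) pointed up and ACTA2 (-0.38, FDR = 0.0730) down, neither with a call. The summed level of that list was 582 to 622 CPM in control and 140 to 154 CPM under the PRMT5 KD label, while CNN1 and DES were at 12 counts or fewer throughout. The striated muscle list of 12 genes summed to 57.1 to 60.5 CPM in control and 29.2 to 36.4 CPM under the PRMT5 KD label, nearly all of it NEB, and MYOD1, MYOG, TNNT2 and TNNT3 were at 0 in every library. Among leukocyte markers, PTPRC, CD3E and LYZ had at most 7 counts, whereas CD14 fell from 1371 and 2000 counts to 51 and 89. The part these genes play in the myosin results was not tested. In bulk RNA, fewer cells of a type and less RNA per cell cannot be told apart.

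Which myosin genes the cells expressed was the first question. Protein-coding genes with an RPKM, a CPM per kilobase of exon, of at least 0.5 in every library of either group were tested, which kept 23 of the 52 members. Of these, 20 reached that level in both groups. MYO7A, MYO3B and MYL5 reached it only in control, so they had to be lower in the other group. Of the 23, 12 share exon bases with a gene on the opposite strand, and whether the counting used strand is not stated. Levels of different genes are compared per kilobase of the longest annotated transcript. On that scale the nonmuscle heavy chain MYH9 was highest, with a mean of 394 RPKM in control and 217 RPKM under the PRMT5 KD label. In PRMT5 KD replicate 2, however, MYH9 (166 RPKM) lay below MYL12B (217 RPKM) and MYL12A (182 RPKM). The light chains MYL12A (197 and 177 RPKM), MYL6 (127 and 113 RPKM) and MYL12B (120 and 197 RPKM) followed. Among the unconventional heavy chains, MYO1C was highest in control (75.6 RPKM, and 47.3 RPKM under the PRMT5 KD label). The plot of levels shows 22 of these genes in the 4 libraries.

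**Figure D1:**
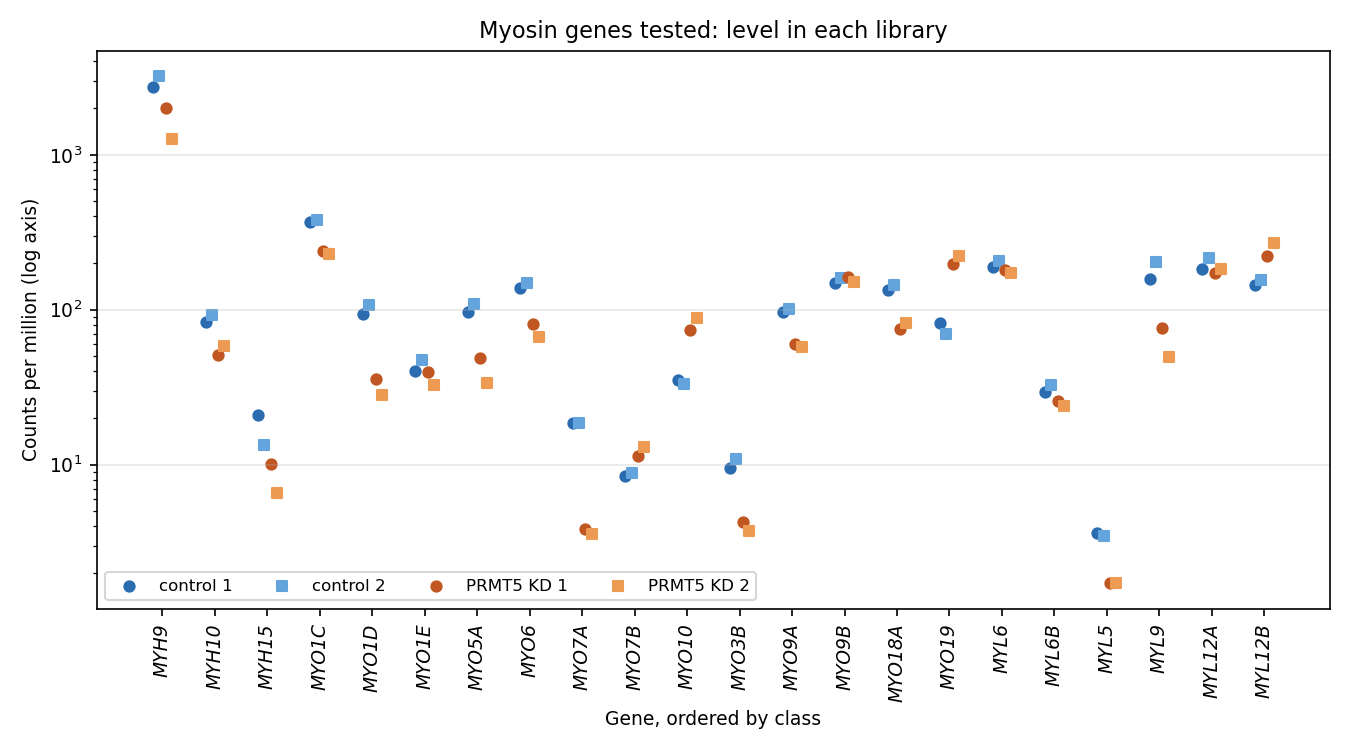
CPM (log axis) of 22 myosin genes tested, ordered by class, with 1 point per library (blue for control, orange for PRMT5 KD, circles for replicate 1 and squares for replicate 2). MYH9 lies highest, between 1255 and 3219 CPM, and MYL5 lowest, between 1.71 and 3.64 CPM.

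The remaining 29 members were not tested. MYH6, MYH13, MYL1, MYL7 and MYL10, chains of heart, skeletal muscle and other specialised tissues, were at 0 in all 4 libraries. Another 11, namely MYH1, MYH2, MYH4, MYH7, MYH14, MYH16, MYO1G, MYO1H, MYL2, MYL3 and MYL4, had at most 7 counts in any library. The other 13 had between 0 and 333 counts. MYH8, the perinatal muscle heavy chain, had 45 and 79 counts in control against 0 in both libraries labelled PRMT5 KD, which was at least 21.6-fold lower against a floor of 3 counts per library. That bound was 25.1-fold without control replicate 1 and 18.1-fold without control replicate 2. MYO3A, a motor of actin protrusions in sensory hair cells, had 59 and 82 counts in control against 333 and 180 under the PRMT5 KD label. In a comparison without the filter on low counts, which included it, its log2 fold change was 1.83 (standard error 0.34, FDR = 0.00217). MYO15B had 42 and 31 counts in control against 93 and 80, and MYO15A had 28 and 37 against 8 and 14. In the comparison without the filter, MYO15B (1.17, FDR = 0.0352) was also called higher. MYO15A (-1.59, FDR = 0.0278), MYO18B (-2.87, FDR = 0.0458) and MYH8 (FDR = 0.000167) were called lower there. Counts of MYO5C (84 to 124), MYO5B (45 to 72) and MYO1F (61 to 141) were the largest among the rest. MYH3, MYH7B, MYH11, MYO1A, MYO16 and MYO18B were sparser. MYH3 had 23 and 26 counts in control against 11 and 21, and MYH7B had 16 and 18 against 5 and 6. MYH11 had 16 and 11 against 5 and 13, and MYO1A had 24 and 28 against 55 and 43. MYO16 had 21 and 37 against 11 and 14, and MYO18B had 10 and 13 against 3 and 0. Intervals and floors here cover counting error only.

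PRMT5 KD was then compared with control over all 11898 genes tested, with a call where the FDR was under 0.05 and the log2 fold change was at least 0.5 in size. By this rule 45.5% of all genes were called, 21.2% higher and 24.3% lower. Of the 23 tested myosin genes, 17 were called, 4 higher (MYO19, MYO10, MYL12B and MYO7B) and 13 lower, and the 3 that passed the filter only through control are among the latter. The filter had set the direction of those 3. The median log2 fold change of the 23, with those 3 included, was -0.69, against -0.01 over all genes tested. A median without them was not computed. The groups did not overlap in CPM for 16 members that were lower and 5 that were higher under the PRMT5 KD label. Over all genes this held for 40.6% and 39.9%, which is 80.5% in either direction. The summed level of all members was 5031 and 5694 CPM in control against 4175 and 3254 CPM under the PRMT5 KD label. Most of that difference lay in the class II chains, at 2847 and 3328 CPM against 2079 and 1320 CPM. Light chains summed to 706 and 817 CPM against 678 and 701 CPM, and the groups lay close without overlapping. Per kilobase of the longest transcript the light chain sums did overlap, at 498 and 570 RPKM in control against 512 and 546 RPKM.

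Fold changes in these libraries fell with transcript length, and myosin heavy chains have long transcripts. When the genes tested were divided by longest transcript into 10 groups of similar size, the shortest group had a median log2 fold change of 0.25 and the longest one of -0.36. The share called lower went from 13.6% to 41.1% along the same groups. Of the 23 myosin genes, 7 fell in the longest group and 5 in the next, where 32.9% of genes were called lower. With exon length and GC content corrected for, 44.3% of all genes were called (21% higher and 23.3% lower), and 11 of the 23 members (3 higher and 8 lower). The 3 members that passed the filter only through control are among the 8. The median of the 23, with them included, was then -0.37, against -0.01 over all genes tested. MYH9, MYH10, MYO1C, MYO9A, MYO18A and MYL12B lost their calls. The plot of change against length places these genes beside all others.

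**Figure D2:**
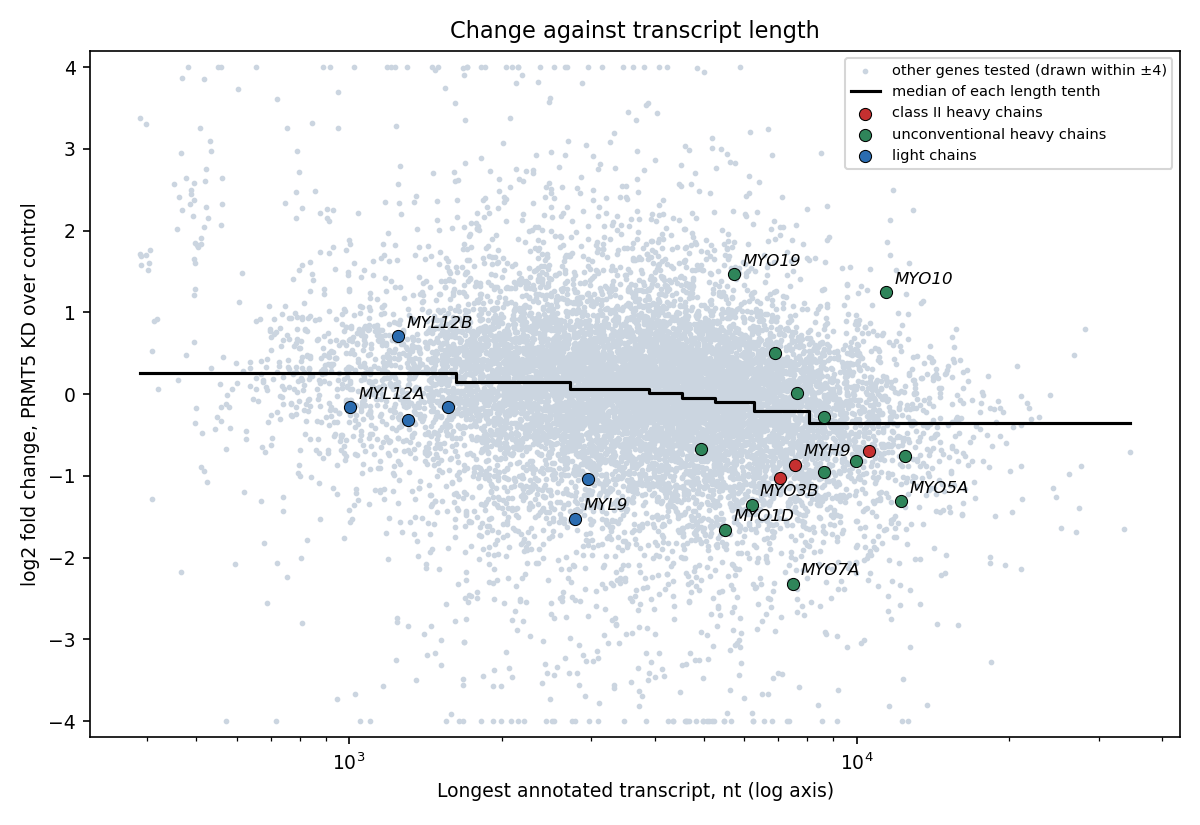
Log2 fold change of PRMT5 KD over control against the longest annotated transcript of each gene (log axis, nt), for all genes tested (grey, drawn within 4 log2 units) and 22 myosin genes (coloured by group). The black line, the median of each length group, descends from 0.25 to -0.36, and MYO10 and MYO19 lie well above it while MYO7A, MYO1D and MYL9 lie well below.

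Among the class II heavy chains, which form contractile filaments, all 3 that were tested were called lower, against 24.3% of all genes tested. In their length groups, 32.9% (for MYH9 and MYH15) and 41.1% (for MYH10) of genes were called lower. After the length and GC correction, 1 of the 3 was still called. MYH9 encodes the heavy chain of nonmuscle myosin IIA and lies on the minus strand of chromosome 22 (GRCh38, 36281280 to 36388010). Its level was 2740 and 3219 CPM in control against 2018 and 1255 CPM under the PRMT5 KD label, a mean of 2979 ± 339 (SD, n = 2) against 1636 ± 540 (SD, n = 2). The groups did not overlap, but the libraries labelled PRMT5 KD lay far apart. The log2 fold change of MYH9 was -0.86 (standard error 0.25, FDR = 0.0274). With 1 control library left, the spread came from the PRMT5 KD pair alone, and the call was lost. The log2 fold change was then -0.98 without control replicate 1 and -0.74 without control replicate 2. It was -1.21 without PRMT5 KD replicate 1 and -0.55 without PRMT5 KD replicate 2. After the length and GC correction it was -0.40 (FDR = 0.193).

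MYH10, the heavy chain of nonmuscle myosin IIB on chromosome 17 from 8474207 to 8631376, had 83.8 and 92.2 CPM in control against 50.8 and 58.1 CPM under the PRMT5 KD label. Its groups did not overlap and replicates lay close together. It fell by 0.69 on the log2 scale (standard error 0.12, FDR = 0.00431). The call was lost without control replicate 2 (-0.62, FDR = 0.0527) and after the length and GC correction (-0.22, FDR = 0.211). MYH15, a little studied member of the striated group on chromosome 3 from 108380368 to 108529322, had 20.8 and 13.4 CPM in control against 10.1 and 6.52 CPM under the PRMT5 KD label. Its log2 fold change was -1.03 (standard error 0.30, FDR = 0.0317), and -0.96 (FDR = 0.0388) after the correction. Without control replicate 1 it was -0.68 (FDR = 0.163) and without PRMT5 KD replicate 2 it was -0.74 (FDR = 0.0862). Per kilobase, MYH9 made up 97.3% ± 0.339 of the summed class II level in control and 97.0% ± 1.02 under the PRMT5 KD label (SD, n = 2 each). The share of MYH10 was 2.12% and 1.996% in control against 1.76% and 3.18%, so the libraries labelled PRMT5 KD lay on either side of control. The smooth muscle member MYH11 had at most 16 counts.

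Promoters of MYH9 and MYH10, which fell, and of MYO19 and MYO10, the most increased of the tested members, are shown as the 250 bases before the RefSeq transcription start on GRCh38.p14. Of the 23 tested members, 20 matched the RefSeq promoter table, and MYL9 and MYO7A were among those that did not. Capitals mark any of 6 motifs searched on both strands, which do not overlap one another in these sequences and are named below. MYH9 lies at chr22:36387968-36388217, MYH10 at chr17:8630726-8630975, MYO19 at chr17:36534869-36535118 and MYO10 at chr5:16936289-16936538, all on the minus strand.
MYH9: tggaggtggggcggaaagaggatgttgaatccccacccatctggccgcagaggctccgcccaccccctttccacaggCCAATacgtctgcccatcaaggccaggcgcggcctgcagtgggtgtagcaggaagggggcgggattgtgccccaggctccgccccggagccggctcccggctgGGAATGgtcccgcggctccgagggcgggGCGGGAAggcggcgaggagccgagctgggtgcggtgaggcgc
MYH10: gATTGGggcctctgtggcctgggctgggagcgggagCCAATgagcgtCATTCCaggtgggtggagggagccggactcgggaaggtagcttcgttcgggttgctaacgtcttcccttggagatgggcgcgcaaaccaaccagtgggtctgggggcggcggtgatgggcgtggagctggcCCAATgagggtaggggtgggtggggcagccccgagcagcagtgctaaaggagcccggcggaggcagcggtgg
MYO19: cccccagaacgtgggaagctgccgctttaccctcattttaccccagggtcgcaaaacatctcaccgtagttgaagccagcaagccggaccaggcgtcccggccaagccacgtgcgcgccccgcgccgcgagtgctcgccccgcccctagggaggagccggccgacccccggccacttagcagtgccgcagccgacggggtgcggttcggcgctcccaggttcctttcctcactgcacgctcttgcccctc
MYO10: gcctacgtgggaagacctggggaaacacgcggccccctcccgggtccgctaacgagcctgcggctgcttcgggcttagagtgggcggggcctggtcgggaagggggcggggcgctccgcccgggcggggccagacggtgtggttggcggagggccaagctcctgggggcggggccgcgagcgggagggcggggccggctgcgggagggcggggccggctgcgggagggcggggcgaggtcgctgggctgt
MYH9 and MYH10 both held GGAATG, a sequence bound by TEAD factors, and CCAAT, a sequence bound by NF-Y. GGAATG was found in 3 of the 20 matched members (MYH9, MYH10 and MYO3B) and in 11.9% of 27305 promoters in the table, and CCAAT in 7 of 20 and in 33.04%. MYH9 alone held GCGGGAA, an E2F-type sequence found in 5.59% of promoters. TATAAA was found in MYH15 and in 11.1% of promoters, and TTTGAA in no matched member and in 13.6%. A CArG box, the sequence bound by SRF, was found in MYO1E and in 1.14% of promoters. Such matches describe letters and show no binding.

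The regulatory light chains did not move together. These chains wrap the neck of class II heavy chains and carry the phosphorylation sites that switch the motor. MYL9, the form most abundant in smooth muscle, lies on chromosome 20 from 36541497 to 36551447. It had 157 and 204 CPM in control against 76.6 and 49.2 CPM under the PRMT5 KD label, with no overlap. MYL9 fell by 1.52 on the log2 scale (standard error 0.25, FDR = 0.00505), and by 1.53 after the length and GC correction. MYL12B, on chromosome 18 from 3261479 to 3278461, had 145 and 156 CPM in control against 221 and 271 CPM under the PRMT5 KD label. This was an increase of 0.71 (standard error 0.14, FDR = 0.00637), which lost its call after the correction (0.36, FDR = 0.0745), without control replicate 1 (0.65, FDR = 0.0676) and without control replicate 2 (0.77, FDR = 0.0544). Its neighbour MYL12A, from 3247481 to 3256236, had 182 and 214 CPM in control against 172 and 183 CPM under the PRMT5 KD label, so the groups overlapped (log2 fold change -0.16, FDR = 0.320).

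As the sequences above show, reads from MYL12A and MYL12B can be hard to assign, and how the estimated counts divided them is not known. The antisense gene MYL12-AS1 also shares 175 exon bases with MYL12A and 24 with MYL12B. Summed, the pair had 327 and 370 CPM in control against 392 and 453 CPM under the PRMT5 KD label, with a difference of 0.28 on the log2 scale (standard error 0.14, FDR = 0.138). The per-kilobase ratio of MYL12B to MYL12A was 0.638 and 0.586 in control against 1.03 and 1.19 under the PRMT5 KD label. MYL9 relative to the sum of both was 0.189 and 0.217 in control against 0.0790 and 0.0442, and the groups did not overlap. MYL9 made up 16.8% ± 1.35 of the summed regulatory light chain level in control and 5.77% ± 2.18 under the PRMT5 KD label (SD, n = 2 each). MYL12B went from 31.5% to 49.5% and MYL12A from 51.4% to 44.6%. With union exon lengths in place of the longest transcripts, MYL9 went from 29.5% to 10.2% and MYL12B from 40.0% to 63.3%, so which chain leads in control depends on the length used. With the longest transcripts the groups did not overlap for any of these shares, for which the exact two-sided permutation test gave p = 0.333, the smallest value 2 libraries against 2 can give.

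MYL5, a sparse regulatory chain on chromosome 4 from 673580 to 682028, had 3.64 and 3.44 CPM in control against 1.72 and 1.71 CPM under the PRMT5 KD label. It fell by 1.04 (standard error 0.24, FDR = 0.0110), and was still called after the correction (-0.88). MYL5 passed the filter only through control, so it had to be lower. Its size held without control replicate 1 (-0.999, FDR = 0.0846) and without control replicate 2 (-1.08, FDR = 0.0790), but the call was lost. Its exons share 571 bases (13.3%) with ATP5ME on the opposite strand. The essential light chains, which stabilise the neck, showed no call. MYL6 had 190 and 207 CPM in control against 181 and 173 CPM under the PRMT5 KD label (log2 fold change -0.16, FDR = 0.258). MYL6B had 29.3 and 32.4 CPM against 25.9 and 23.8 CPM (-0.31, FDR = 0.0782). MYL6 and MYL6B adjoin on chromosome 12 and share 89 exon bases on the same strand, and MYL6 shares 719 exon bases (16.3%) with SMARCC2 on the other.

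**Figure D3:**
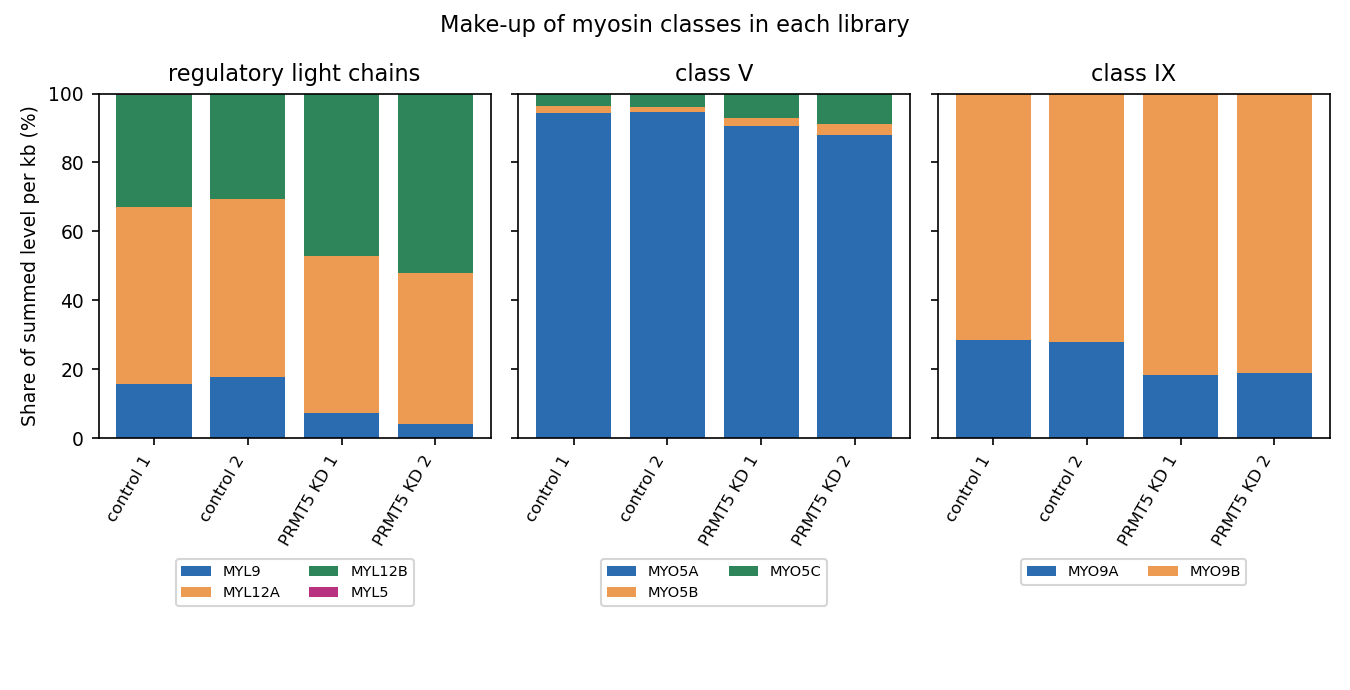
Share (%) of each gene in the summed level per kilobase of its class, 1 bar per library, for regulatory light chains and heavy chain classes V and IX. MYL9 shrinks from 15.9% and 17.8% to 7.31% and 4.23%, and MYO9A from 28.5% and 27.9% to 18.4% and 19.0%.

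Class I myosins, motors that tether membrane to actin, included MYO1C and MYO1D, which fell. MYO1D, on chromosome 17 from 32492522 to 32877177, had 93.6 and 107 CPM in control against 35.5 and 27.96 CPM under the PRMT5 KD label. It fell by 1.66 (standard error 0.15, FDR = 0.000524) and by 1.55 after the length and GC correction, and was called lower under every alternative. MYO1C, a motor of glucose transporter delivery on chromosome 17 from 1464186 to 1492686, had 367 and 379 CPM against 237 and 229 CPM. It fell by 0.68 (standard error 0.12, FDR = 0.00397), which was below the fold change threshold after the correction (-0.43, FDR = 0.0199) and when libraries were scaled by total counts alone (-0.498, FDR = 0.0103). MYO1E, at 40.4 and 47.3 CPM against 39.4 and 32.5 CPM, was not called (-0.29, FDR = 0.144).

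The tested motors of classes V and VI, both cargo carriers, fell. MYO5A, which moves melanosomes and other vesicles towards the plus ends of actin, lies on chromosome 15 from 52307281 to 52529132. It had 96.4 and 109 CPM in control against 49.1 and 33.8 CPM under the PRMT5 KD label and fell by 1.31 (standard error 0.19, FDR = 0.00261). After the length and GC correction it was still called (-0.81, FDR = 0.0103). MYO5A remained 89.3% ± 1.70 of class V under the PRMT5 KD label, from 94.5% ± 0.196 in control (SD, n = 2 each), while the share of the untested MYO5C went from 3.71% to 7.95%. The level of MYO5C itself overlapped between groups, with 2.12 and 2.48 CPM against 2.21 and 1.92 CPM. With union exon lengths its share went from 8.73% to 17.4% and that of MYO5A from 86.7% to 76.1%. MYO6, the motor that walks to the minus ends and serves in endocytosis, is on chromosome 6 from 75749201 to 75919537. It had 138 and 148 CPM against 81.3 and 66.8 CPM and fell by 0.95 (standard error 0.13, FDR = 0.00187), and it was still called after the correction (-0.78, FDR = 0.00372).

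Unconventional motors with other roles included the 2 tested members with the highest fold changes. MYO19, which tethers mitochondria to actin, lies on chromosome 17 from 36495636 to 36543435. It had 81.5 and 69.9 CPM in control against 196 and 221 CPM under the PRMT5 KD label, so every library of that group was higher. MYO19 rose 2.76-fold, by 1.46 on the log2 scale (standard error 0.13, FDR = 0.000504), and by 1.80 after the length and GC correction. Its exons share 1042 bases (7.97%) with ZNHIT3 and 615 bases (4.70%) with PIGW on the opposite strand. MYO10, the motor of filopodia tips on chromosome 5 from 16661907 to 16936288, had 35.4 and 32.99 CPM in control against 74.1 and 88.2 CPM under the PRMT5 KD label. It rose 2.37-fold, by 1.25 (standard error 0.13, FDR = 0.000734), and by 1.55 after the correction, although its longest transcript of 11456 nt places it in the longest length group. MYO19 and MYO10 were called higher under every alternative. MYO7B, a motor of brush border microvilli on chromosome 2 from 127535683 to 127637729, had 8.46 and 8.77 CPM against 11.4 and 13.1 CPM. Its increase of 0.51 (standard error 0.15, FDR = 0.0312) lay just past the threshold, and was 0.85 (FDR = 0.00474) after the correction. The call was lost with a replicate block (0.50, FDR = 0.0540), without control replicate 1 (0.48, FDR = 0.158), without control replicate 2 (0.53, FDR = 0.143) and without PRMT5 KD replicate 2 (0.41, FDR = 0.0795).

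MYO7A, a relative of MYO7B that works in the stereocilia of the inner ear, had the lowest fold change of all tested members. It is on chromosome 11 from 77128246 to 77215241 and had 18.6 CPM in both control libraries and 3.87 and 3.58 CPM under the PRMT5 KD label. It was 4.99-fold lower, with a log2 value of -2.32 (standard error 0.15, FDR = 0.000276), and -1.97 after the correction. MYO3B, a protrusion motor with a kinase domain on chromosome 2 from 170178145 to 170655171, had 9.55 and 10.9 CPM against 4.24 and 3.74 CPM. Its log2 fold change was -1.35 (standard error 0.18, FDR = 0.00167), and -1.28 after the correction. As stated above, both genes passed the filter only through control.

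In class IX, whose motors carry a GTPase-activating domain, MYO9A fell while MYO9B did not. MYO9A, on chromosome 15 from 71822291 to 72118577, had 96.9 and 102 CPM in control against 60.2 and 57.4 CPM under the PRMT5 KD label. It fell by 0.75 (standard error 0.11, FDR = 0.00189), which was below the threshold after the length and GC correction (-0.39, FDR = 0.0212). MYO9B had 149 and 161 CPM against 163 and 150 CPM, and the groups overlapped (0.02, FDR = 0.911). After the correction MYO9B was 0.36 (FDR = 0.0308), which was also below the threshold. The share of MYO9A in the pair went from 28.2% ± 0.449 to 18.7% ± 0.399 (SD, n = 2 each). MYO18A, a Golgi-linked myosin on chromosome 17 from 29071122 to 29180398, had 134 and 144 CPM against 75.3 and 82.5 CPM. It fell by 0.82 (standard error 0.11, FDR = 0.00179), and the call was lost after the correction (-0.32, FDR = 0.0564). The plot of changes sets the fitted values of 22 members beside their corrected values.

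**Figure D4:**
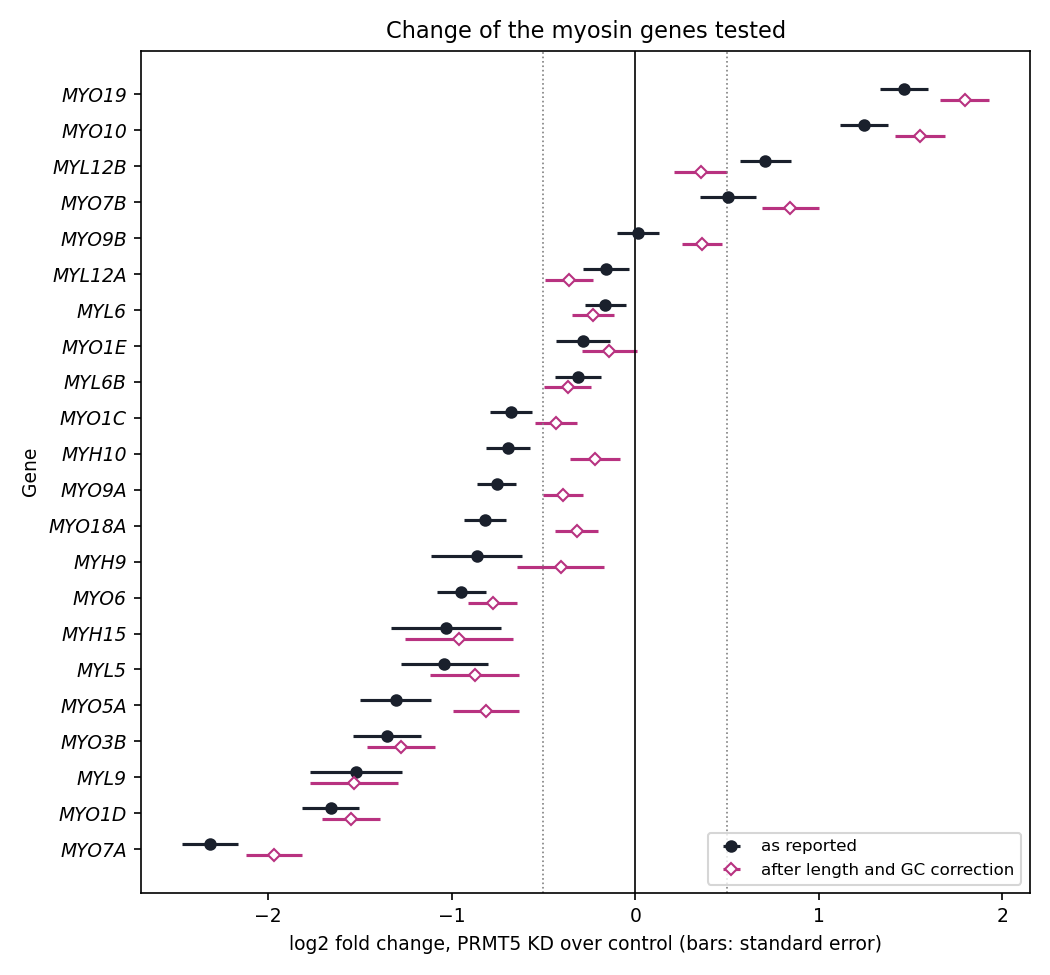
Log2 fold change of PRMT5 KD over control for 22 myosin genes tested, as fitted (filled circles) and after correction for exon length and GC content (open diamonds), with bars for the standard error and dotted lines at -0.5 and 0.5. MYO19 (1.46) and MYO10 (1.25) lie furthest right and MYO7A (-2.32) and MYO1D (-1.66) furthest left under both fits.

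Genes that switch, feed or serve these motors were taken from 5 lists written from general knowledge. The switch list holds small GTPases and their activators, light chain kinases and phosphatase subunits. Of its 25 genes, 22 were tested, with 3 called higher and 7 lower, which is the 45.5% called over all genes, and its median log2 fold change was -0.15 (-0.01 over all genes tested). After the length and GC correction 5 were called higher and 5 lower, as ARHGEF1 (0.80) and ARHGEF11 (0.59), both exchange factors, gained calls. DAPK1, a kinase of the light chain and of cell death, went from 22.8 and 15.2 CPM to 1.68 and 2.22 CPM and fell by 3.28 (standard error 0.27, FDR = 0.000437). MYLK, the main dedicated light chain kinase, went from 522 and 519 CPM to 181 and 233 CPM and fell by 1.33 (standard error 0.16, FDR = 0.00109), or by 0.84 after the correction. The related kinase MYLK4 fell by 1.35, CDC42BPA and CDC42BPB fell by 1.29 and by 0.81, and the exchange factor ARHGEF12 fell by 0.82, the last not called after the correction (-0.42).

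The kinases ROCK1 and ROCK2 were not called. ROCK1 had 157 and 154 CPM in control against 138 and 118 CPM under the PRMT5 KD label (-0.28, FDR = 0.0953). ROCK2 had 176 and 183 CPM against 136 and 140 CPM, and at -0.38 (FDR = 0.0237) it did not reach the fold change threshold. The phosphatase subunit PPP1R12A had 148 and 136 CPM against 148 and 125 CPM (-0.06, FDR = 0.729). Its relative PPP1R12B fell by 0.64 (FDR = 0.0209), with no call with a replicate block (FDR = 0.0548), after the correction, with total counts alone, or without control replicate 1 (-0.48), control replicate 2 (-0.78) or PRMT5 KD replicate 1 (-0.44). RHOB, ECT2 and CIT were higher. RHOB, a small GTPase, rose by 1.45 (standard error 0.17, FDR = 0.00105). ECT2, which acts at the cytokinetic ring, rose by 0.94 (FDR = 0.00333). The cytokinesis kinase CIT went from 74.0 and 55.1 CPM to 103 and 116 CPM, an increase of 0.77 (FDR = 0.00924) that was 1.23 after the correction and 0.57 (FDR = 0.0653) without control replicate 2.

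Of the 10 actin and tropomyosin genes, 8 were tested and 3 called, against 45.5% of all genes. Cytoplasmic ACTG1 fell from 2415 and 2940 CPM to 1580 and 1269 CPM, by 0.91 (standard error 0.18, FDR = 0.00732), and by 0.76 without control replicate 2 (FDR = 0.0781). ACTB had 3319 and 3817 CPM against 2891 and 2902 CPM and was not called (-0.30, FDR = 0.144). TPM3 rose by 0.76 (FDR = 0.00245), and cardiac ACTC1 rose from 4.32 and 1.20 CPM to 11.6 and 29.5 CPM, by 2.92 (standard error 0.77, FDR = 0.0322). The ACTC1 call was lost without control replicate 2 (2.25), without PRMT5 KD replicate 1 (3.49), without PRMT5 KD replicate 2 (2.11) and without the filter on low counts (2.97). Actin genes have near-identical coding sequences, so their separate counts are uncertain.

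Of 8 calmodulins and chaperones, which bind the necks of unconventional myosins or fold the motor head, 5 were tested and only CALML4 was called, with an increase of 0.88 (FDR = 0.0287), where 21.2% of all genes were called higher. That call was lost with a replicate block (FDR = 0.0671), without control replicate 1 (1.16), without control replicate 2 (0.63) and without PRMT5 KD replicate 2 (0.68). CALM2 (0.34, FDR = 0.0559) and CALM3 (0.45, FDR = 0.0234) were below the fold change threshold, and CALM2 also missed the FDR limit. Of 13 cargo adaptors, 11 were tested and 2 called, both lower, against 24.3% of all genes called lower. CALCOCO2, an autophagy receptor, was called higher after the correction alone (0.53, FDR = 0.00664, from 0.45). RAB27A, which recruits class V myosin to melanosomes, went from 24.6 and 30.0 CPM to 12.6 and 11.4 CPM and fell by 1.19 (standard error 0.16, FDR = 0.00150). LMTK2, a partner of MYO6, went from 85.7 and 80.6 CPM to 43.0 and 37.3 CPM and fell by 1.05 (standard error 0.12, FDR = 0.00102). Among 17 partners of muscle filaments, 4 were tested, with 1 called higher and 2 lower, where 21.2% and 24.3% of all genes were. The fourth, TNNT1, was not called (0.004, FDR = 0.992). CALD1, which restrains myosin on actin, fell by 1.14 (FDR = 0.000839) and the filament ruler NEB fell by 0.98 (FDR = 0.00200), or by 0.51 (FDR = 0.0272) after the correction. SMTN, a smooth muscle filament protein, went from 59.7 and 53.1 CPM to 147 and 86.1 CPM, an increase of 1.05 (FDR = 0.0217) that did not pass without control replicate 1 (1.14, FDR = 0.0763) or control replicate 2 (0.97, FDR = 0.118).

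**Figure D5:**
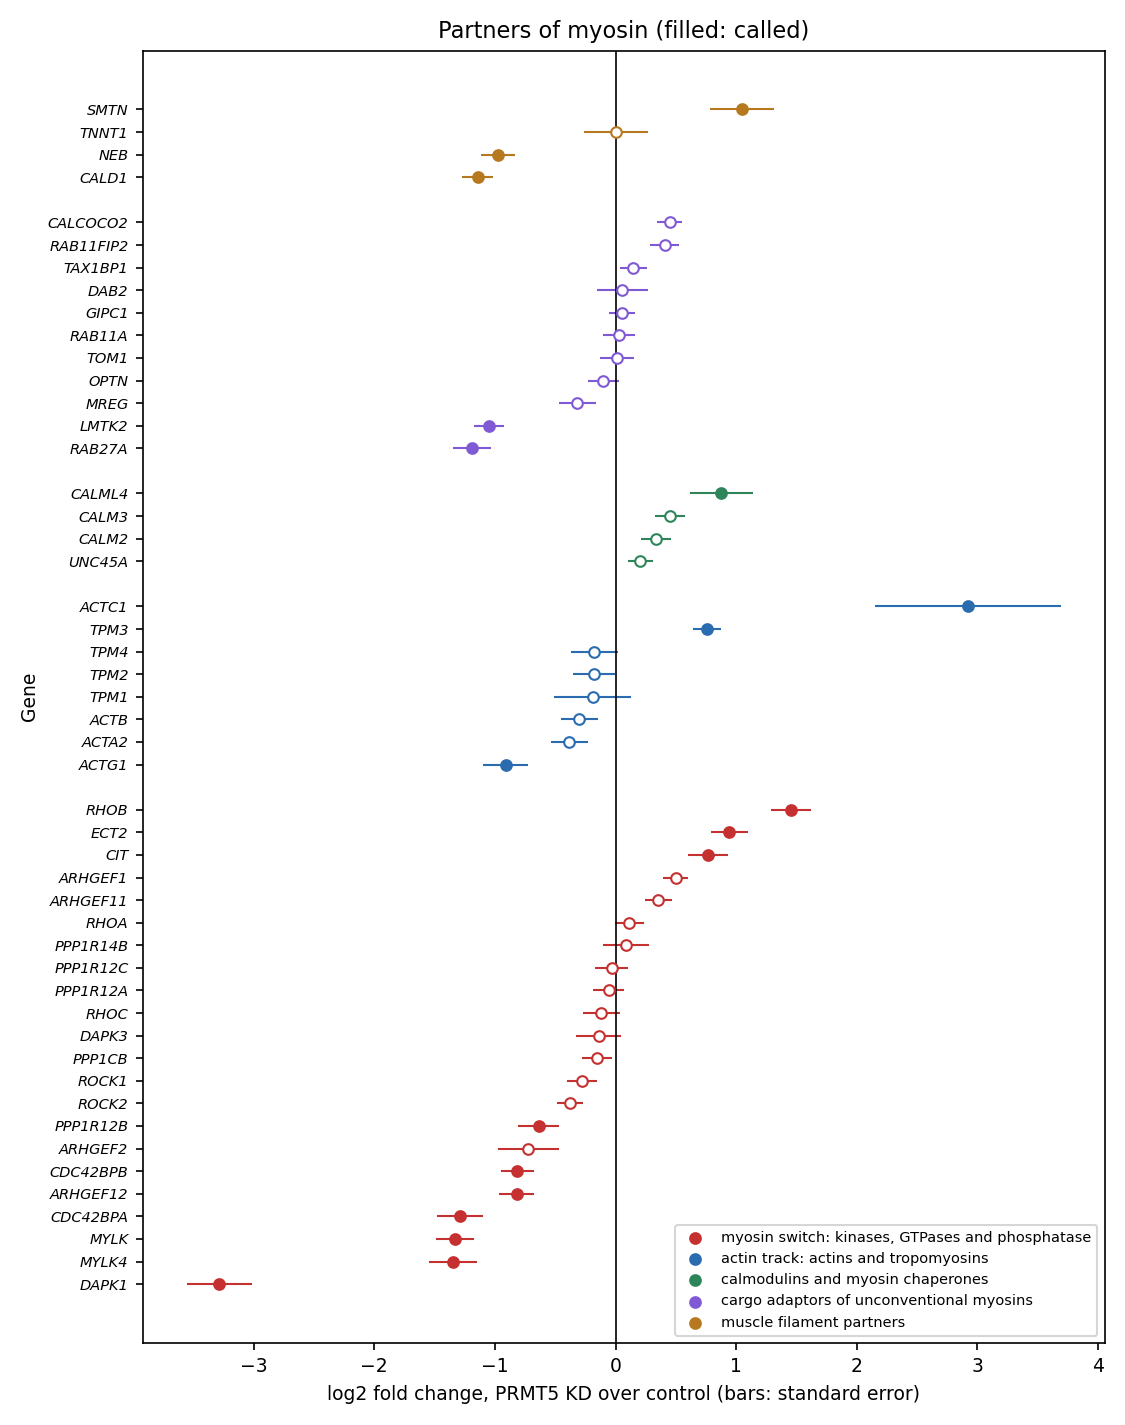
Log2 fold change of PRMT5 KD over control, with bars for the standard error, for tested genes of the 5 partner lists (1 colour per list, filled where called). DAPK1 (-3.28) and ACTC1 (2.92) lie at the extremes, and of the 11 cargo adaptors only RAB27A and LMTK2 are filled.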

How the data were processed

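RNA-seq was measured in 2 control and 2 PRMT5 KD libraries of UMSCC74B cells. The authors deposited estimated counts per gene and library, not normalized. The submitters' processing notes name FastQC, Trim Galore, STAR, Salmon and DESeq2 and the build GRCh38, whereas the methods of the study name FeatureCounts with Gencode genes. Symbols in the tables are of RefSeq style, and 28 names turned into dates were left out (at most 0.161% of counts).

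The estimated counts were rounded. Protein-coding names (18923 of 29655, by GENCODE 44) with an RPKM of at least 0.5, on union exon length, in every library of either group were tested with the quasi-likelihood test of edgeR 4.0.16 in R 4.3.3 (TMM, robust dispersion, no replicate block), with Benjamini-Hochberg adjustment over all 11898 genes (FDR). Levels per kilobase use the longest GENCODE 44 transcript. The script was tested on simulated data. Alternatives were DESeq2 1.42.0, other scalings, filters, gene sets and thresholds, a replicate block, a spline correction for exon length and GC content (4 degrees of freedom), and leaving out each library. Same-numbered libraries deviated from their group means with a correlation of -0.10 over genes, and neither labels nor methods pair them.

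Named are the members, the called genes of the partner lists, and ROCK1, ROCK2, MYLK, CIT, PPP1R12A, PRMT5 and FXR1. CALM2, CALM3 and ACTB were added after their values were seen. Some items are not reported here. The members, lists and tests were chosen with earlier results of these data known.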

Additional observations from a re-analysis of the deposited data

How the results depend on the processing

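The directions of all called myosin genes were kept under every alternative tried. DESeq2, 2 other scalings, all gene names and non-robust dispersion left the same 4 higher and 13 lower members called. Scaling by total counts moved the median of all genes to 0.17 (log2), and 61.5% of calls were then higher, against 46.5%. It brought MYL6 to 0.0151, MYL12A to 0.0203 and PPP1R12A to 0.12, none with a call. The length and GC correction gave 8 members lower, and 8 with the replicate block added. It put PPP1R12A at 0.16, and at 0.16 with the block. Where it ended a call, this stands beside the gene, and the cause was not tested. A fold change threshold of 1 gave 2560 genes, 2 members higher and 7 lower, and 10 partner genes, by its own construction. Milder filters on low counts tested 36 members (6 called higher, 17 lower) and 46 members (6 higher, 16 lower). MYL12A reversed to 0.28 when summed with MYL12B, an alternative added after seeing the data, as were union exon lengths for shares.

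With each library left out in turn, called genes ranged from 3109 (without control replicate 2) to 5707, members called higher from 2 to 4 and lower from 10 to 13, partner genes from 13 to 21, and the PRMT5 log2 fold change from 0.57 to 0.78. The lone library of an arm was then assumed to vary like the other group. MYO9B ranged from -0.0381 (without control replicate 1) to 0.0849, with -0.0072 without PRMT5 KD replicate 1. PPP1R12A ranged from -0.150 to 0.0689 (without PRMT5 KD replicate 2), with 0.0066 without control replicate 1.

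A replicate block gave 5185 called genes, 3 members higher and 13 lower, with 18 partner genes and PRMT5 at 0.66. The replicate numbers share only a number. Crossed pairing, added after seeing the data, gave 5485 called genes, 4 members higher and 12 lower. With 2 libraries a group, no outlier check was possible, and the filters on gene type and low counts left 29 members out.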
